A study of Mus musculus with 9 samples.

Results

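The genes described here are the 7 genes of selenocysteine incorporation, namely Secisbp2l, Secisbp2, Sephs1, Sephs2, Pstk, Sepsecs and Eefsec. They were chosen by name for their function, and the set was proposed because Secisbp2l had been higher after exposure on days 1 to 7 in an earlier look at these data. All 7 are present among the 23412 gene symbols of the deposited table, and all 7 are among the 14336 genes that passed a filter on low values (1 TPM or more in 3 samples or more). TPM, the deposited unit of transcript abundance, is scaled by transcript length and by library total, so levels of different genes can be set side by side.

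The samples are hippocampus of wild-type mice at postnatal day 21, measured by stranded mRNA sequencing of total RNA. Control pups (3 samples) carried the label sham. In the other groups dams were gavaged with 1 mg/kg per day of perfluorooctane sulfonate (PFOS), a persistent fluorinated surfactant, and the pups took it up in milk on postnatal days 1 to 7 (PFOS P1-7, 3 samples) or 8 to 14 (PFOS P8-14, 3 samples). The labels name no animal, litter or sex and do not say what sham consisted of. The p-values therefore set group differences only against the spread between these samples, which may be technical.

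Selenocysteine is inserted at UGA, a codon that otherwise ends translation. A hairpin in the 3' untranslated region of the mRNA, the SECIS element, is bound by SECISBP2, which brings in the elongation factor EEFSEC with its dedicated tRNA. The amino acid is built on that tRNA: seryl-tRNA is phosphorylated by PSTK and converted by SEPSECS, with selenophosphate made by SEPHS2, which is itself a selenoprotein. SECISBP2L is the paralog of SECISBP2, and SEPHS1 is the paralog of SEPHS2 that lacks selenocysteine. Brain holds on to selenium tenaciously when supply is short, and its selenoproteins include peroxidases of the glutathione peroxidase family and the deiodinases that set local thyroid hormone.

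The codon that these 7 genes serve is printed here for one of them and for selenoprotein genes whose levels are described further on. Each line gives the coding strand 5' to 3' from the GENCODE M21 transcripts of GRCm38, in lower case with the selenocysteine codon TGA in capitals. For Sephs1 the capitals mark the codon that aligns with that of Sephs2.
Sephs2, codon 63: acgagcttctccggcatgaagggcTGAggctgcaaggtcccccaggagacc
Sephs1, codon 29: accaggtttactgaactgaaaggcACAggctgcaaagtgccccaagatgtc
Selenow, codon 13: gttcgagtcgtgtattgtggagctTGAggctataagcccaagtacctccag
Selenom, codon 48: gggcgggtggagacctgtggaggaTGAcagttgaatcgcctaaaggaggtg
Gpx1, codon 47: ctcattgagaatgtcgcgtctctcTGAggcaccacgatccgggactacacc
Dio3, codon 170: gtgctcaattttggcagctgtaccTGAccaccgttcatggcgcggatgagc
Among the 7 genes, Sephs2 alone has an in-frame TGA in the transcript read here. Sephs2 and Sephs1 encode 75.2% identical residues over 391 aligned codons, while Secisbp2l and Secisbp2 share 37.3% over 820. Sephs1 carries ACA where Sephs2 has its selenocysteine codon.

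Secisbp2l was the most abundant of the 7 genes, with a mean of 89.7 TPM over the 9 samples. Sephs2 followed with 43.8 TPM and Pstk with 29.5 TPM. Eefsec (17.4 TPM), Sephs1 (14.5 TPM), Secisbp2 (11.9 TPM) and Sepsecs (8.28 TPM) completed the order. Over the 9 samples the ranges of Secisbp2l, Sephs2, Pstk and Eefsec did not overlap with that of the next gene in the order. The lowest Eefsec value, 16.53 TPM, was just above the highest of Sephs1, 16.42 TPM. The ranges of Sephs1 and Secisbp2 overlapped across libraries, as did those of Secisbp2 and Sepsecs, although within each of the 9 libraries Sephs1 was above Secisbp2 and Secisbp2 above Sepsecs. Secisbp2l was above its paralog in every sample, and Sephs2 was above Sephs1. Spread within groups was smallest for Pstk, with a coefficient of variation of 3.06%, and largest for Sepsecs, 21.9%.

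**Figure D1:**
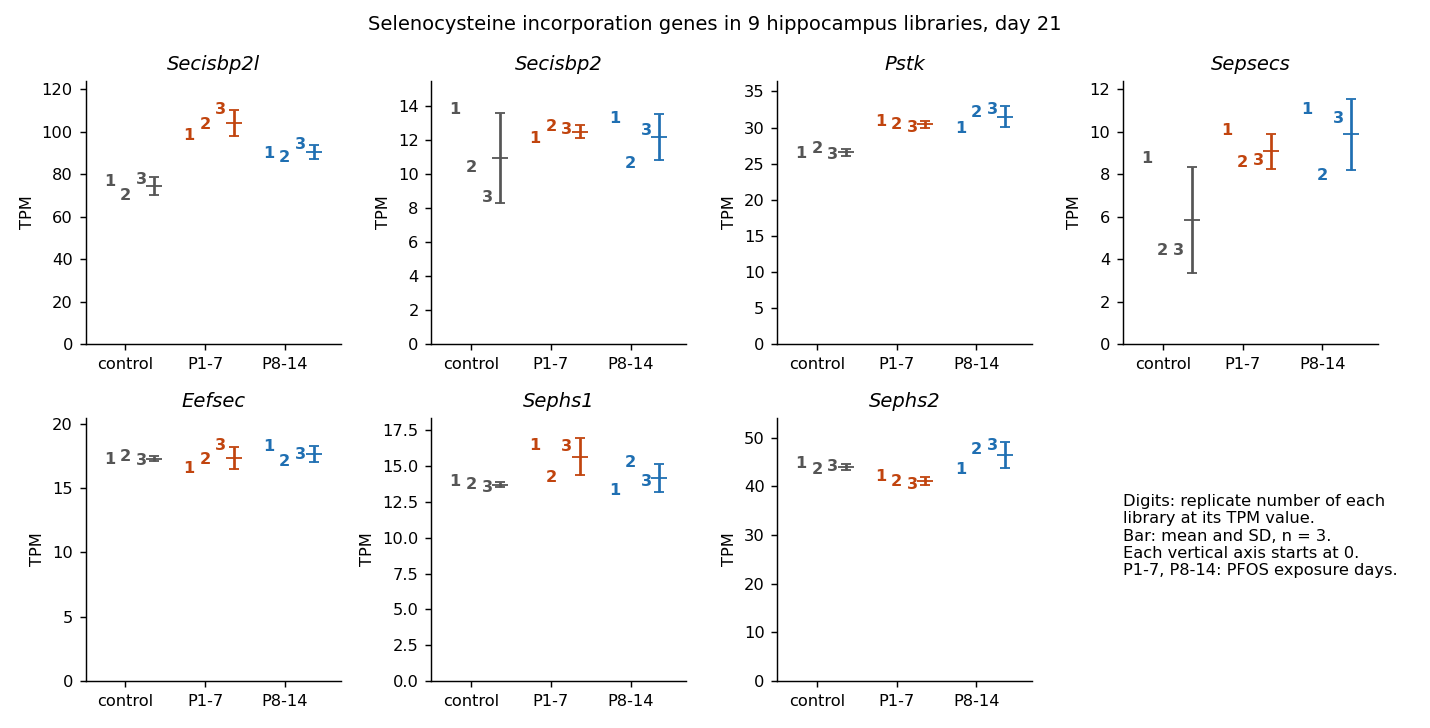
TPM of the 7 genes in each of the 9 libraries, drawn as the replicate number at its value, with the group mean and SD beside it (n = 3) and each vertical axis starting at 0. Secisbp2l lies at 69.7 to 77.2 TPM in controls, 87.6 to 93.9 TPM in PFOS P8-14 and 98.3 to 110.5 TPM in PFOS P1-7, with no overlap between groups.

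Several properties of the libraries as a whole bear on these values. Markers of choroid plexus, a tissue next to the hippocampus, divided the libraries: Ttr was at 9446 to 11626 TPM in 5 of them (control 3, PFOS P1-7 1 and 3, PFOS P8-14 1 and 2) and at 35.1 to 107.7 TPM in the other 4. Libraries also differed in how gene levels varied with transcript length. Spearman's rho between a gene's deviation from its mean and its transcript length, across genes that are not independent replicates, was -0.41 in control 2, -0.51 in control 3 and -0.19 in PFOS P8-14 2, and 0.13 to 0.46 in the other 6. Control 1 stood apart from the other controls. In limma with Benjamini-Hochberg adjustment over 14336 genes, no gene passed an adjusted p of 0.05 in any of the 3 comparisons (0% called in each). The smallest adjusted p was 0.181 for PFOS P1-7 against control, 0.424 for PFOS P8-14 against control and 0.9998 between the exposed groups, with 2627, 1573 and 158 genes at an unadjusted p below 0.05. Without control 1, 2658 and 1741 genes passed in the comparisons with control. All differences below are of log2(TPM + 1), a scale that understates changes of low genes, and the median over all tested genes was 0.09, 0.06 and -0.03. Of all tested genes, 65.5%, 62.1% and 38.8% were above 0.

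The SECIS-binding genes come first. Secisbp2l (chromosome 2, 125736986 to 125782870, GRCm38.p6) was at 76.3, 69.7 and 77.2 TPM in controls 1, 2 and 3. It was at 98.3, 103.5 and 110.5 TPM in PFOS P1-7 and at 89.9, 87.6 and 93.9 TPM in PFOS P8-14. Every sample of both exposed groups was above every control, and every PFOS P1-7 sample was above every PFOS P8-14 sample. The means were 74.4 ± 4.11 TPM in control, 104 ± 6.13 TPM in PFOS P1-7 and 90.5 ± 3.20 TPM in PFOS P8-14 (SD, n = 3). The log2 difference from control was 0.48 (SE 0.07) for PFOS P1-7, a ratio of mean TPM of 1.40, and 0.28 (SE 0.07) for PFOS P8-14, a ratio of 1.22. PFOS P8-14 minus PFOS P1-7 was -0.20 (SE 0.07). The PFOS P1-7 difference is the value from which the genes were proposed, and the other comparisons share libraries with it, so no test is given for Secisbp2l. The order control, PFOS P8-14, PFOS P1-7 without overlap was also found in 0.467% of all tested genes, and both exposed groups lay above control without overlap in 4.85%.

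Secisbp2 (chromosome 13, 51651682 to 51684044), the factor that binds SECIS elements in most tissues, was at 13.8, 10.4 and 8.62 TPM in controls. The PFOS P1-7 samples were at 12.1, 12.8 and 12.6 TPM and the PFOS P8-14 samples at 13.3, 10.7 and 12.6 TPM. Control 1 was the highest of all 9 samples and control 3 the lowest, so the groups overlapped throughout. The log2 difference was 0.20 (SE 0.15) in PFOS P1-7 and 0.16 (SE 0.15) in PFOS P8-14 (limma, adjusted p = 0.657). These values rest on single controls: they were 0.37 and 0.33 without control 1, and 0.053 and 0.013 without control 3. Whether the paralogs differ in their response was not tested.

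Pstk (chromosome 7, 131371113 to 131392768) encodes the kinase that phosphorylates seryl-tRNA. Controls were at 26.5, 27.1 and 26.2 TPM, PFOS P1-7 samples at 30.9, 30.5 and 30.0 TPM, and PFOS P8-14 samples at 29.9, 32.1 and 32.5 TPM. All 6 exposed samples were above all 3 controls, and the exposed groups overlapped with each other. The means were 26.6 ± 0.45 TPM, 30.4 ± 0.47 TPM and 31.5 ± 1.42 TPM (SD, n = 3). The log2 difference was 0.19 (SE 0.07) for PFOS P1-7, or 0.11 with median-of-ratios scaling, which brings the median of all genes close to 0. It was 0.24 (SE 0.07) for PFOS P8-14, with an unadjusted p of 0.00905 and an adjusted p of 0.426 in limma, which is not past the threshold. With limma array weights, which give less weight to libraries that deviate, the PFOS P8-14 difference was 0.25 with an adjusted p of 0.0465. With those weights 1053 of 14336 genes passed in that comparison. Pstk overlaps Ikzf5 over 5831 bases and also Fgfr2, both on the opposite strand. The kit marks strand, and whether counting used it is not given in the sources used here, so reads of these genes may not be fully separated.

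Sepsecs (chromosome 5, 52640089 to 52669764) encodes the synthase that completes selenocysteine on its tRNA. Control 1 was at 8.75 TPM, while controls 2 and 3 were at 4.41 and 4.40 TPM. The PFOS P1-7 samples were at 10.1, 8.57 and 8.65 TPM and the PFOS P8-14 samples at 11.1, 7.95 and 10.6 TPM. All exposed samples were well above controls 2 and 3, and control 1 lay within the range of both exposed groups. The log2 difference was 0.61 (SE 0.23) in PFOS P1-7 and 0.71 (SE 0.23) in PFOS P8-14, the latter with an unadjusted p of 0.0105 and an adjusted p of 0.426 in limma. Control 1 decides this call: without it the PFOS P8-14 difference was 1.00 with an adjusted p of 0.0111, where 1741 of 14336 genes passed. The PFOS P1-7 difference was 0.90 without it. With array weights the PFOS P8-14 adjusted p in limma was 0.0334, where 1053 genes passed.

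Sephs2, whose product makes selenophosphate, and its paralog Sephs1 are described together. Sephs2 (chromosome 7, 127271879 to 127274059), whose selenocysteine codon is printed above, was at 44.6, 43.4 and 44.0 TPM in controls, 42.1, 40.9 and 40.3 TPM in PFOS P1-7 and 43.3, 47.5 and 48.3 TPM in PFOS P8-14. It was the 1 gene of the 7 with every PFOS P1-7 sample below every control, by -0.10 (SE 0.07) on the log2 scale, or -0.18 with median-of-ratios scaling. PFOS P8-14 overlapped with control (0.07, SE 0.07, limma adjusted p = 0.659). Every PFOS P8-14 sample was above every PFOS P1-7 sample, with a log2 difference of 0.17 (SE 0.07), an unadjusted p of 0.0402 and a limma adjusted p of 0.9998. Sephs1 (chromosome 2, 4881564 to 4910557) was at 13.9, 13.7 and 13.5 TPM in controls, 16.4, 14.2 and 16.4 TPM in PFOS P1-7 and 13.3, 15.3 and 13.9 TPM in PFOS P8-14. Its PFOS P1-7 samples were all above controls, sample 2 by little, with a difference of 0.18 (SE 0.10; 0.10 with that scaling), and PFOS P8-14 overlapped with control at 0.04 (SE 0.10, limma adjusted p = 0.863). In PFOS P1-7 the pair lay on opposite sides of control, Sephs1 above and Sephs2 below, although Sephs1 went to -0.03 once the length trend described below was removed.

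Eefsec (chromosome 6, 88257334 to 88446552), the elongation factor that delivers the charged tRNA, had the smallest difference from control of the 7 in both comparisons. Controls were at 17.3, 17.5 and 17.1 TPM, PFOS P1-7 samples at 16.5, 17.2 and 18.3 TPM and PFOS P8-14 samples at 18.2, 17.03 and 17.6 TPM, all overlapping. The log2 difference was 0.0037 (SE 0.08; -0.075 with median-of-ratios scaling) in PFOS P1-7 and 0.03 (SE 0.08) in PFOS P8-14, with a 95% interval for the latter of -0.16 to 0.21 (limma adjusted p = 0.894).

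**Figure D2:**
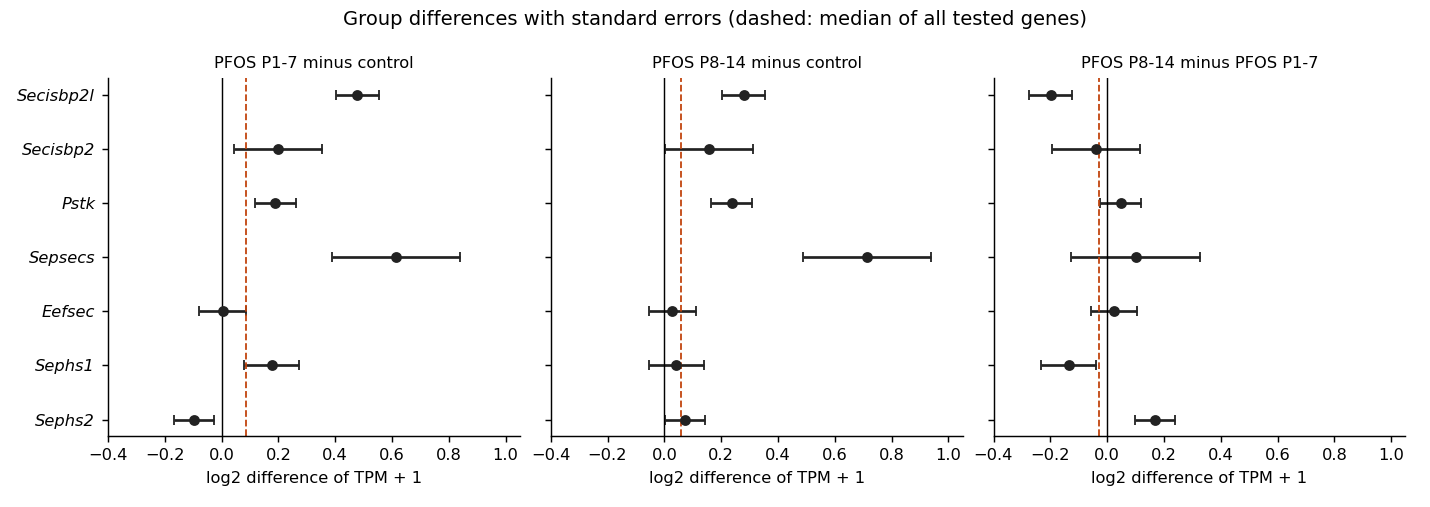
Log2 difference of TPM + 1 with its standard error for the 7 genes in the 3 comparisons; the dashed line is the median over all 14336 tested genes (0.09, 0.06 and -0.03). Sepsecs and Secisbp2l lie farthest from 0 in both comparisons with control, and Eefsec lies near 0 in all 3.

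As a list, in PFOS P1-7 minus control, 6 of the 7 genes were above 0 and 1 below, with a median of 0.19. Of all tested genes, 65.5% were above 0 in that comparison. There 3 of 7 were above control without overlap and 1 below, where 12.3% and 6.56% of all tested genes were. Because the set was proposed from that comparison, nothing is read from these counts. In PFOS P8-14 all 7 differences were above 0, with a median of 0.16, where 62.1% of all tested genes were above 0. Those of Sephs1 (-0.011) and Eefsec (-0.026) were below 0 with median-of-ratios scaling. Leaving Secisbp2l aside, Pstk was the 1 of 6 above control without overlap, where 7.31% of all genes were and 5.99% were below; 2 of the 6 had an unadjusted p below 0.05, both higher, where 6.33% of all genes were higher and 4.65% lower. Between the exposed groups 1 of the 6, Sephs2, was higher without overlap and at an unadjusted p below 0.05, where 1.9% and 0.467% of all genes were, and none was lower, where 4.15% and 0.635% were. Because the comparisons with control share the 3 control samples, their values are set side by side and not counted as separate evidence.

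Transcript length touches the Secisbp2l result directly. Its transcript is 6797 bases long, above 91.2% of the 14214 genes with a length, whose median is 3025 bases. The 1718 genes of like length (5438 to 8496 bases) had a median log2 difference of 0.23 in PFOS P1-7, where 22.9% lay above control without overlap, and of 0.16 in PFOS P8-14, where 10.5% did. Secisbp2l was above 88.6% of these genes in PFOS P1-7 and above 76.5% in PFOS P8-14. It was proposed for its PFOS P1-7 difference, and PFOS P8-14 shares the controls, so these ranks give no test. After a trend on length and GC content had been subtracted from each library, its log2 levels were 6.21, 6.36 and 6.55 in controls, 6.59, 6.53 and 6.71 in PFOS P1-7 and 6.44, 6.51 and 6.48 in PFOS P8-14. PFOS P1-7 sample 2 then lay below control 3, and the groups overlapped with control; the difference was 0.23 (SE 0.09) in PFOS P1-7 and 0.10 (SE 0.09) in PFOS P8-14. The difference between the exposed groups was -0.13 and they still did not overlap. Whether the trend accounts for the uncorrected difference was not tested.

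The same removal acted differently on the other genes. Pstk, whose transcript is 1135 bases, kept both exposed groups above control without overlap, at 0.25 (SE 0.07) and 0.29 (SE 0.07). Sepsecs (5252 bases) was then at 0.41 and 0.59 on the log2 scale, with control 1 still inside the exposed range. Sephs1 (5319 bases) went to -0.03 in PFOS P1-7 and -0.09 in PFOS P8-14, and its groups then overlapped. Sephs2 (2177 bases) kept its PFOS P1-7 samples below control, at -0.12. The share of all tested genes that lay without overlap after this removal is not given here. Lengths are of 1 reference transcript per gene and need not be the transcripts that these samples express.

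**Figure D3:**
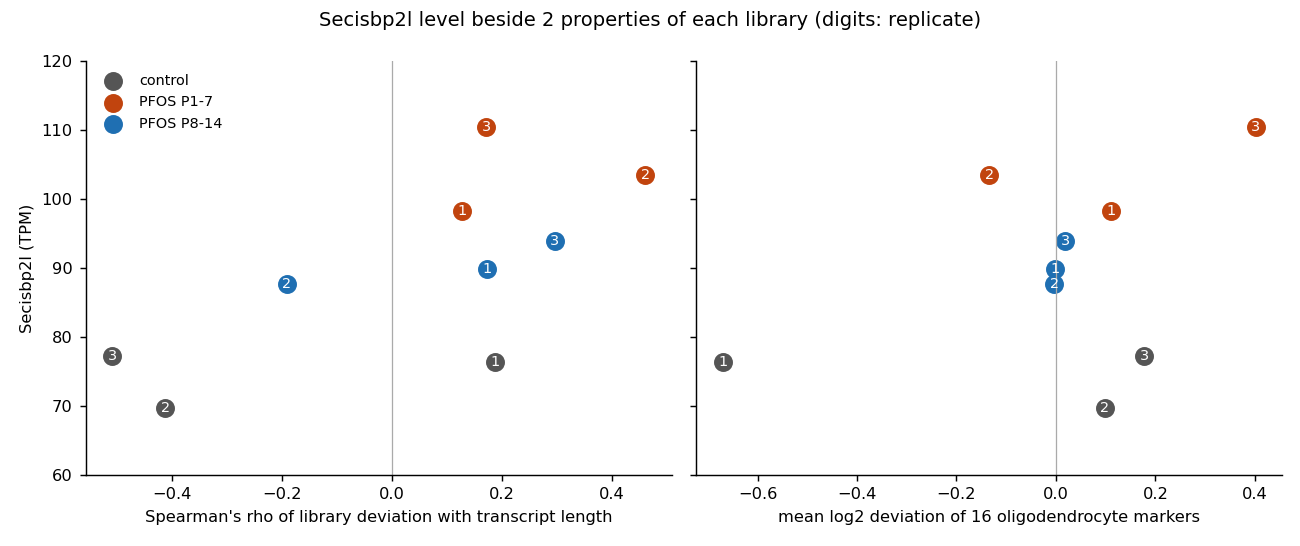
Secisbp2l TPM in each of the 9 libraries (digits give the replicate; the vertical axis starts at 60) against the library's rho of deviation with transcript length, left, and the mean log2 deviation of 16 oligodendrocyte markers, right. Controls 2 and 3 have the lowest rho, -0.41 and -0.51. Control 1 has a rho of 0.19, a Secisbp2l level of 76.3 TPM and the lowest marker deviation, -0.67.

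Control 1 does not follow the other controls in its rho with length, which at 0.19 is within the range of the exposed libraries. Its Secisbp2l level, 76.3 TPM, lay between those of the other controls. It was also the library lowest in the oligodendrocyte markers described below, with a mean log2 deviation of -0.67. The part of length or of these markers in its Secisbp2l level was not tested. Without control 1 the Secisbp2l difference was 0.50 in PFOS P1-7 and 0.30 in PFOS P8-14 with no correction. Without that library and after subtraction of the trend it was 0.15 and 0.018. Among the libraries rich in Ttr the PFOS P1-7 difference was 0.43, and among those poor in it 0.50. The corresponding PFOS P8-14 differences were 0.20 and 0.36. Each of these subsets holds 1 or 2 samples per group and gives no test.

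Secisbp2l RNA is known to be abundant in oligodendrocytes, the myelinating glia, so the markers of that cell type were read beside it. All 16 markers, among them Mbp and Mog, were detected in every library, and none was at 0. Their summed level was 10096 to 16686 TPM in controls, 13838 to 19842 TPM in PFOS P1-7 and 15402 to 16408 TPM in PFOS P8-14. All 16 lay above 0 in both comparisons with control, where 65.5% and 62.1% of all tested genes did, with medians of 0.23 and 0.12. None of the 16 separated the groups without overlap or reached an unadjusted p below 0.05. Control 1 was the library lowest in these markers, with a mean log2 deviation of -0.67. The control mean, -0.13, rests on that library. The means were 0.13 in PFOS P1-7 and 0.0047 in PFOS P8-14. Controls 2 and 3, at 0.10 and 0.18, were above every PFOS P8-14 library (-0.0030 to 0.02). They were also above PFOS P1-7 sample 2, at -0.13. Their Secisbp2l levels were 69.7 and 77.2 TPM, and that of the exposed sample was 103.5 TPM. These controls also had the lowest rho with transcript length (-0.41 and -0.51), and that sample had the highest, 0.46. The relation of these markers to Secisbp2l was not tested. In bulk tissue a change in the number of such cells and a change in RNA per cell cannot be told apart. Of 9 neuron markers, 8 lay above 0 in each comparison with control, with medians of 0.28 and 0.25. In PFOS P1-7, 3 of the 9 were above control without overlap, where 12.3% of all genes were. At an unadjusted p below 0.05, 5 were higher and 1 lower, where 12.5% and 5.79% of all genes were. In PFOS P8-14 these counts were 1, 3 and 0, beside shares of 7.31%, 6.33% and 4.65% of all genes. None passed the adjusted threshold in limma. Their mean log2 deviation was -0.25 and -0.33 in controls 2 and 3, 0.05 in control 1 and -0.0063 to 0.20 in the exposed libraries, and their part in the result was not tested. Of 6 microglia markers, 4 lay above 0 in each comparison with control, with medians of 0.18 and 0.08. Of 5 endothelium markers, 3 did, with medians of 0.09 and 0.03. Below control without overlap were 2 of the 6 and 1 of the 5 in each comparison, where 6.56% and 5.99% of all genes were. No marker among 7 of astrocytes and 6 of oligodendrocyte precursors separated the groups.

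The genes whose level followed Secisbp2l most closely over the 9 samples, by Pearson's r of log2 levels, were Pard3 (r = 0.98), Fam73a (0.97), Vldlr (0.97), Adam9 (0.97) and Ptgs2 (0.96). Those that ran most nearly opposite were Comtd1, Map1lc3a and Cdk5, each at -0.96. Pard3, a cell polarity gene, was at 8.57 ± 0.38 TPM in control, 11.6 ± 0.72 TPM in PFOS P1-7 and 10.1 ± 0.06 TPM in PFOS P8-14 (SD, n = 3). Map1lc3a, an autophagy gene, was at 462 ± 30.8, 334 ± 29.9 and 379 ± 14.5 TPM. These correlations hold the group differences and the library trends in common. Over deviations from the group means, the closest were Lactb2 (r = 0.97), Fbxo30 (0.95), Grap (0.95), Tab2 (0.94) and Mitd1 (0.94), none of which is in the first list. Both lists are extremes picked from all tested genes over only 9 samples, so no test is read from these r values. Of the other 6 incorporation genes, Pstk had the highest r over all samples, 0.71, and -0.30 over deviations from group means.

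The products of the pathway are the selenoproteins. Of 23 selenoprotein genes listed, 22 were matched in the table and 20 were tested. Dio1 and Gpx2 were too low, and Selenov was not analysed here. The most abundant was Selenow (listed as Sepw1), a small thioredoxin-fold protein, at a mean of 3977 TPM, followed by Gpx4, the lipid hydroperoxide peroxidase, at 777 TPM. Selenom (Selm) was at 310 TPM, Selenok (Selk) at 267 TPM and Selenof (Sep15) at 248 TPM. In PFOS P1-7 minus control, 7 were above 0 and 13 below, where 65.5% of all tested genes were above 0. Their median was -0.08, and none passed the adjusted threshold. At an unadjusted p below 0.05, 5 of 20 were lower, where 5.79% of all genes were, and none was higher, where 12.5% were. These shares are not matched for transcript length, whose median is 1854 bases in the 20 and 3025 bases in all genes with a length.

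Those 5 were Selenom, Dio3, Gpx1, Selenoh and Selenow. Selenow was at 3678, 4901 and 5431 TPM in controls, 3659, 3419 and 3707 TPM in PFOS P1-7 and 3341, 3735 and 3921 TPM in PFOS P8-14, so that controls 2 and 3 were high and control 1 was not. Its log2 difference was -0.36 (SE 0.14, limma adjusted p = 0.240) in PFOS P1-7 and -0.33 (SE 0.14, adjusted p = 0.443) in PFOS P8-14. Selenom, a protein of the endoplasmic reticulum, was at 286, 445 and 441 TPM in controls, with control 1 again apart, 297, 236 and 251 TPM in PFOS P1-7 and 259, 281 and 297 TPM in PFOS P8-14. Its difference was -0.56 (SE 0.16, limma adjusted p = 0.204) and -0.46 (SE 0.16, adjusted p = 0.426). Without control 1 both genes passed in both comparisons, Selenow at -0.52 and -0.50 (limma adjusted p = 0.0110 and 0.0194) and Selenom at -0.77 and -0.67 (adjusted p = 0.00554 and 0.0111). They were among 2658 and 1741 of 14336 genes that passed without that library. Without control 3 neither passed: Selenow was at -0.24 and -0.22 and Selenom at -0.45 and -0.36.

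Gpx1, a cytosolic glutathione peroxidase, was at 136, 156 and 179 TPM in controls and 113, 126 and 138 TPM in PFOS P1-7, a difference of -0.31 (SE 0.12, limma adjusted p = 0.230). Without control 1 it was -0.41 (limma adjusted p = 0.0339), where 2658 of 14336 genes passed. Dio3, the deiodinase that inactivates thyroid hormone, was low throughout, at 4.93, 3.51 and 1.95 TPM in controls, 2.54, 0.89 and 0.45 TPM in PFOS P1-7 and 2.94, 4.08 and 1.72 TPM in PFOS P8-14. The groups overlapped, and the PFOS P1-7 difference was -1.01 (SE 0.37, limma adjusted p = 0.224). At this low level the size depends on the pseudocount, -1.56 at 0.1 and -0.43 at 5, and leaving out 1 PFOS P1-7 sample gave -1.37 to -0.73. Dio2, the activating deiodinase, was at 26.5 ± 5.66, 26.3 ± 2.55 and 25.8 ± 1.54 TPM in the 3 groups (SD, n = 3). Selenoh (listed as 2700094K13Rik), a nucleolar protein, was at 66.2, 64.8 and 69.4 TPM in controls and 56.8, 49.4 and 57.8 TPM in PFOS P1-7, without overlap (-0.29, SE 0.12, limma adjusted p = 0.251). Gpx4 and Selenon (Sepn1) were also lower without overlap there, so 3 of 20 were, beside 6.56% of all genes. Txnrd3 was the 1 of 20 higher without overlap, where 12.3% of all genes were. The gaps were narrow for Selenon (15.63 TPM against a lowest control of 15.68 TPM) and Txnrd3 (4.31 TPM against a highest control of 4.23 TPM).

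In PFOS P8-14 the selenoprotein genes had a median of -0.03, with 7 above 0 and 13 below, where 62.1% of all tested genes were above 0. There 3 of 20 had an unadjusted p below 0.05, all lower (Selenom, Selenow and Selenon), where 4.65% of all genes were lower. Selenon, a calcium-handling protein of the endoplasmic reticulum, was at 15.7, 16.4 and 15.7 TPM in controls and 15.1, 12.5 and 11.8 TPM in PFOS P8-14, and was the 1 gene of the 20 below control without overlap (-0.27, SE 0.12, limma adjusted p = 0.454), where 5.99% of all genes were. Between the exposed groups none of the 20 had an unadjusted p below 0.05, where 0.467% of all genes were higher and 0.635% lower. The smallest belonged to Dio3 (0.83, SE 0.37), Selenoh (0.23, SE 0.12) and Txnrd2 (0.16, SE 0.11), each with a limma adjusted p of 0.9998. The PFOS P8-14 median was 0.0011 without control 1 and 0.01 with array weights.

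**Figure D4:**
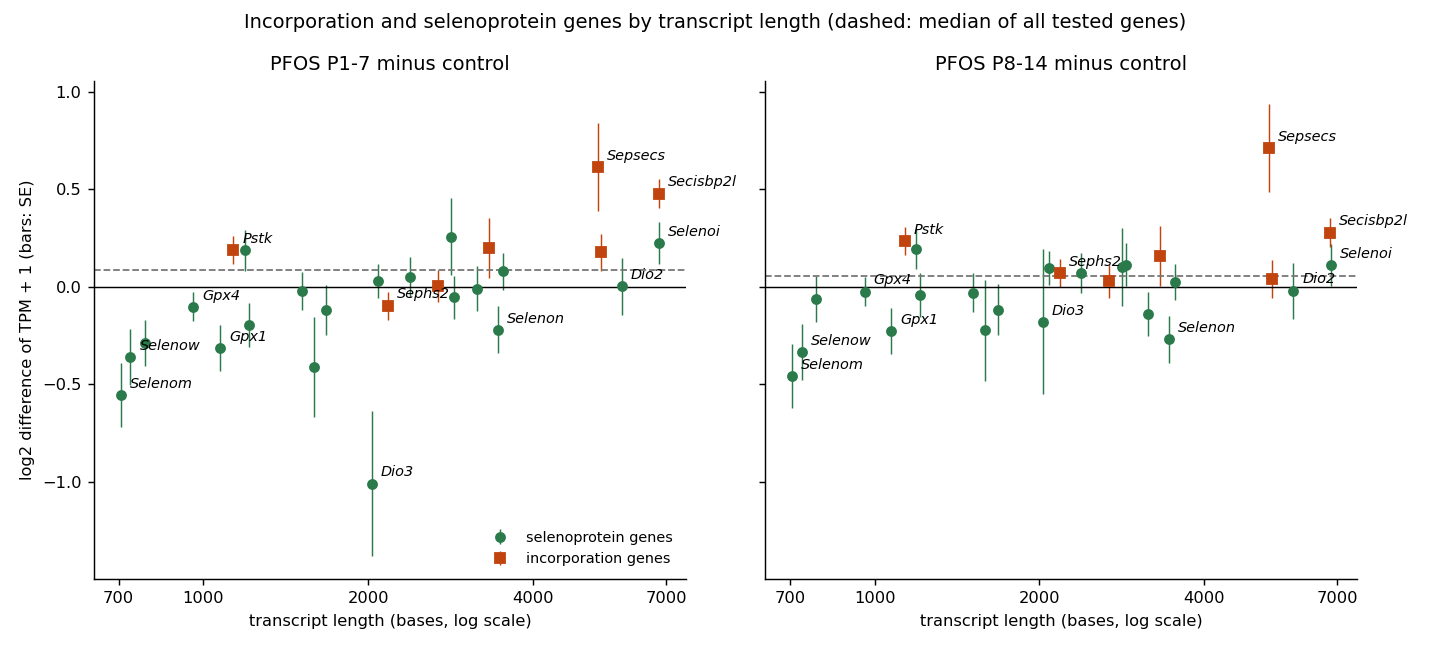
Log2 difference of TPM + 1 from control, with its standard error, against transcript length (log axis) for the incorporation genes (squares) and the selenoprotein genes (circles), with the median of all tested genes dashed. Selenom and Selenow, with transcripts of 707 and 736 bases, lie at -0.56 and -0.36 in PFOS P1-7, and Secisbp2l, with 6797 bases, lies at 0.48.

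The 20 selenoprotein transcripts run from 707 to 6803 bases with a median of 1854, and those of the 7 incorporation genes from 1135 to 6797 bases with a median of 3328. Selenom and Selenow are the shortest of the 20. After subtraction of the trend, the PFOS P1-7 differences were smaller and still below 0: -0.32 for Selenom, -0.15 for Selenow, -0.17 for Gpx1 and -0.14 for Selenoh. With control 1 also left out, a setting chosen after the data were seen, 927 genes passed in PFOS P1-7 and 786 in PFOS P8-14. In PFOS P1-7 Selenow and Gpx1 no longer passed there (limma adjusted p = 0.205 and 0.313), whereas Selenom did (-0.46, adjusted p = 0.0235). In PFOS P8-14 Selenow then had an adjusted p of 0.164 and Selenom one of 0.0310. With all samples kept and the trend subtracted, Selenoh in PFOS P1-7 still lay below control without overlap, at 5.89 against 5.90 at the nearest. In PFOS P8-14 Selenon still did, and Selenot (2810407C02Rik) did too. Gpx4 and Selenon in PFOS P1-7 then overlapped with control. Selenos (Vimp) lay above control without overlap in both comparisons, and Txnrd3 still did in PFOS P1-7. The share of all tested genes without overlap after this subtraction is not given here, so nothing is read from these cases.

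Accessory genes of the pathway were read from a list of 10, of which 9 were tested (Lrp2, a receptor for selenoprotein P, was too low). In PFOS P1-7 and in PFOS P8-14 the same 2 of 9 had an unadjusted p below 0.05, both higher, namely Ncl and Alkbh8, where 12.5% and 6.33% of all genes were higher. Ncl encodes nucleolin, an RNA-binding protein reported to bind SECIS elements. It was at 72.7, 71.3 and 73.8 TPM in controls, 82.9, 83.7 and 84.7 TPM in PFOS P1-7 and 82.3, 80.4 and 78.8 TPM in PFOS P8-14. Its groups followed the order seen for Secisbp2l with no overlap, a likeness looked for after the values were seen. The differences were 0.20 (SE 0.06, limma adjusted p = 0.207) and 0.15 (SE 0.06, adjusted p = 0.443), and after subtraction of the trend they were -0.058 and -0.039. Without control 1 the PFOS P1-7 difference was 0.20 with a limma adjusted p of 0.0496, where 2658 of 14336 genes passed.

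Alkbh8, which modifies the wobble base of the selenocysteine tRNA, was at 12.6, 7.39 and 5.55 TPM in controls, 13.7, 16.9 and 12.9 TPM in PFOS P1-7 and 12.3, 10.7 and 14.2 TPM in PFOS P8-14. Control 1 was again the control nearest to the exposed samples. The difference was 0.76 (SE 0.24, limma adjusted p = 0.21) and 0.56 (SE 0.24, adjusted p = 0.443). Without control 1 it was 1.06 (limma adjusted p = 0.00724) and 0.85 (adjusted p = 0.0194), where 2658 and 1741 of 14336 genes passed. Without control 3 it was 0.53 (limma adjusted p = 0.492) and 0.32 (adjusted p = 0.780). Between the exposed groups no accessory gene had an unadjusted p below 0.05, and the smallest were those of Trnau1ap (-0.16, SE 0.14) and Sars (0.07, SE 0.07), both with a limma adjusted p of 0.9998.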

How the data were processed

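Messenger RNA of mouse hippocampus was sequenced with a stranded kit, per the labels' protocols. The authors deposited 1 table of TPM per gene symbol for 9 samples; each column sums to about 1000000. RSEM 1.3.3, STAR 2.5.3a, fastp 0.21.0 and bcl2fastq are named in the submitters' processing notes, with build mm10. Which annotation and settings were applied is not given in the sources used here. Sequencing depth cannot be read from TPM and is unknown, so counting intervals are not given.

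Genes at 1 TPM or more in 3 samples or more were tested on log2(TPM + 1) with limma 3.58.1 in R 4.3.3: 1 fit over the 3 groups, moderated variances with a trend, two-sided tests, Benjamini-Hochberg adjustment over 14336 genes and a threshold of 0.05. The procedure was tested on simulated data. No label states that a replicate number marks a shared litter or batch. Deviations of same-numbered control and PFOS P1-7 samples correlated at 0.24, 0.19 and 0.70, all above 0.1, so these were also fitted as pairs; for PFOS P8-14 the correlations ran from -0.32 to 0.69. The genes, the lists and the comparisons of interest were chosen with earlier results of these data known. The text names the 7 genes, Dio2, the 5 most abundant selenoprotein genes, the list genes with an unadjusted p below 0.05 or the smallest p (3 selenoprotein and 2 accessory genes), and the genes most like Secisbp2l. Gpx4, Txnrd3, Selenos and Selenot without overlap and the marker genes were named after their values were seen. Older symbols were matched through RefSeq synonyms. Positions are from RefSeq (GRCm38.p6), and transcript lengths, GC content and coding sequences are from GENCODE M21, 1 transcript per gene, available for 99.1% of tested genes. Each library's trend on length and GC content was removed by loess with a span of 0.4. Figures were drawn with matplotlib 3.10.9.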

Additional observations from a re-analysis of the deposited data

How the results depend on the processing

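The settings varied were the pseudocount (0.1 and 5), the filter, median-of-ratios scaling, a replicate block, a fit on the compared groups alone, array weights, removal of the length and GC trend, a choroid plexus covariate, libraries rich or poor in Ttr, and leaving out each sample. The length and GC removal combined with leaving out control 1, and with the replicate block, and the replicate block on the compared groups alone, were chosen after seeing the data. The Secisbp2l difference kept its sign in all 21 alternatives of each comparison, at 0.15 to 0.52, 0.018 to 0.36 and -0.24 to -0.13. It moved by more than the replicate spread in PFOS P1-7 with median-of-ratios scaling (0.40) and with the trend removed (0.23; 0.15 without control 1; 0.23 with the replicate block), and in PFOS P8-14 with the trend removed (0.10; 0.018 without control 1; 0.10 with the replicate block) and in Ttr-rich (0.20) or Ttr-poor (0.36) libraries alone. Leaving out 1 sample at a time gave 0.43 to 0.52 and 0.23 to 0.31. Genes called, 0 as reported, were 2914 and 1053 with array weights and 927 and 786 with the trend removed without control 1; leaving out 1 sample gave 0 to 2658 and 0 to 1741, all from control 1; the cause was not tested. In PFOS P1-7 Eefsec was below 0 in 7 of 21 alternatives (lowest -0.075) and Sephs1 in 3 of 21 (lowest -0.089). Signs turned in PFOS P8-14 for Sephs1 (scaling -0.011, trend removed -0.095, also with the replicate block -0.095, without control 1 -0.16; without 1 sample -0.0097 to 0.083) and Eefsec (scaling -0.026; trend removed without control 1 -0.030). Between the exposed groups they turned for Eefsec (array weights -0.0073; without 1 sample -0.0074 to 0.061, below 0 without PFOS P1-7 1) and Secisbp2 (without 1 sample -0.10 to 0.046, above 0 without PFOS P8-14 2). With the trend removed Ncl turned to -0.058 and -0.039 (the same with the replicate block; -0.16 and -0.14 without control 1). With the replicate block, over all samples or over the compared groups alone, Secisbp2l stayed at 0.48 and 0.28, 0 genes passed in each comparison, and no call changed. Depth is unknown and limits low genes such as Dio3.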
